A study of Mus musculus with 8 samples.

Results

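RNA from the whole lungs of 8 mice was examined for the apolipoprotein L (Apol) genes, chosen by symbol: Apol6, Apol7a, Apol7c, Apol8, Apol9a, Apol9b, Apol10a, Apol10b, Apol11a and Apol11b. All 10 were among the 23284 genes of the table. The recipients were wild-type (WT) C57BL/6 mice that received a bone marrow transplant and then spent 3 days in hypoxia. For 4 of them the donors lacked all 3 nitric oxide synthases, n, i and eNOS (n/i/eNOS-/-), and this group is called NOS-null marrow. The remaining 4 had WT donors and form the WT marrow group. Lung cells of the recipient itself carried intact genes in both groups, and the labels used here give neither how much of the lung was donor-derived nor the ages of the mice. The family was chosen with the comparison of NOS-null and WT marrow in view, so the members' changes, SEs and counts in that comparison describe these libraries, with no p-value, and nothing is drawn from how many members differ.

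Apolipoprotein L proteins carry a domain that resembles pore-forming bacterial toxins and act mostly inside cells, on membranes. The best known is human APOL1, the serum factor that lyses trypanosomes, which has no mouse counterpart. Interferons induce several of the human and mouse genes, among them mouse Apol9a and Apol9b. Mouse Apol7c damages the phagosome membrane of dendritic cells during antigen cross-presentation, and human APOL6 has been described as an inducer of apoptosis. No role is given here for the other members.

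Values are read counts that the authors had divided by a size factor per library, called scaled reads, so that a value near 1 is about 1 read. Library totals ran from 7767065 to 8625142 scaled reads, and 16778 to 17621 genes were above 0. Nos2, the gene of the inducible enzyme, stood at 13.3 to 43.5 scaled reads in NOS-null marrow lungs, against 87.4 to 115 in WT marrow lungs. The 12 lung epithelium markers were all measured and summed to 312488 to 343196 scaled reads in NOS-null marrow lungs and 319037 to 400212 in WT marrow lungs. NOS-null marrow replicates 1 and 2 stood farther from WT marrow on the first principal component (−57.7 and −32.3) than replicates 3 and 4 (−3.35 and −1.40), against 17.7 to 27.2 in WT marrow lungs. Whole lung RNA cannot tell fewer cells of a type from less RNA per cell. The labels do not say how the mice of a group relate, so the spread measured is that between these samples.

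All 10 members lie on mouse chromosome 15 (GRCm38, the assembly also called mm10, GENCODE M21 annotation) and are annotated as protein-coding. Apol6 lies alone at chr15:77044729-77057106 on the plus strand. The other 9 lie together over 369 kb, from the start of Apol7a at position 77388219 to the end of Apol8 at 77757003, and 331 kb separate Apol6 from them. Apol11b lies at chr15:77633946-77643286 (minus strand), Apol10a at chr15:77477047-77491069 (plus), Apol10b at chr15:77583819-77596125 (minus) and Apol9b at chr15:77729039-77736382 (plus). Apol6 overlaps the myoglobin gene Mb on the opposite strand. Because no strand of counting is given, reads of Apol6 and Mb cannot be told apart there.

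The promoter windows carried a shared sequence. RefSeq (GRCm38.p6) windows of 250 bases before to 50 after a transcription start were matched for 9 members, with Apol6 not among them. The core of the interferon stimulated response element, the DNA sequence through which interferon-activated factors act, was searched on both strands as GAAA, any 2 bases, and GAAA again. It was found in 7 of the 9 (Apol7c, Apol9a, Apol9b, Apol10a, Apol10b, Apol11a and Apol11b), each counted by its 5′-most window. Of all 32851 windows 3.44% held it, and 3.99% of all genes held it in any window. Some of the members' windows are close copies of each other, as given below, so the 7 are not separate occurrences. In the list of type I interferon response genes used below, 11 of 21 genes with a window held it in any of their windows. The windows below are those of the 4 members with the interferon core that were high enough to be tested, and of Apol9a as the close copy of Apol9b. Each is written on the strand of its gene, with the core, which lies on the opposite strand and so reads here as TTTC, 2 bases and TTTC, in capitals.
Apol11b (chr15:77643237-77643536, minus strand): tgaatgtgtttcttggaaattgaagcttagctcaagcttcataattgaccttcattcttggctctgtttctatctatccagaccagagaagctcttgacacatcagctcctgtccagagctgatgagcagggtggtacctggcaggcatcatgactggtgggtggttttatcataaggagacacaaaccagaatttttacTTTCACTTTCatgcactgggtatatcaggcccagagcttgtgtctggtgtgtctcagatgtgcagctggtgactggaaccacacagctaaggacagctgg
Apol10a (chr15:77476797-77477096, plus strand): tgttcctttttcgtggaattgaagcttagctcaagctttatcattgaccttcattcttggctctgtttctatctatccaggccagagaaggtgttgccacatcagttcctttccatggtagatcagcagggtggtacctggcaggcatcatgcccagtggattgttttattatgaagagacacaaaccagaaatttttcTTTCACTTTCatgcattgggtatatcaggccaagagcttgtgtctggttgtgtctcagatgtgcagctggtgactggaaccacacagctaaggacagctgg
Apol10b (chr15:77596076-77596375, minus strand): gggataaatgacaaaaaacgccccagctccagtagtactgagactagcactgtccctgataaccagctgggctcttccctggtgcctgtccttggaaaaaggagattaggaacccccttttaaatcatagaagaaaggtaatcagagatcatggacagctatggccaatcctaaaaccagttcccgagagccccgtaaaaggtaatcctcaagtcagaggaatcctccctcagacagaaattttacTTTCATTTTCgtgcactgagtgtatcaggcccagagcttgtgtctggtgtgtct
Apol9b (chr15:77728822-77729121, plus strand): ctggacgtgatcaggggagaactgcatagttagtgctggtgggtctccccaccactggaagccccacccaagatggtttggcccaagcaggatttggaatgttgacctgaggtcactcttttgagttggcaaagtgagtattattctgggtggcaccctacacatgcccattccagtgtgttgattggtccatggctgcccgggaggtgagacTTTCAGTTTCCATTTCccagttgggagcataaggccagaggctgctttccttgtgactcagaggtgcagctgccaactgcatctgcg
Apol9a (chr15:77411031-77411330, minus strand): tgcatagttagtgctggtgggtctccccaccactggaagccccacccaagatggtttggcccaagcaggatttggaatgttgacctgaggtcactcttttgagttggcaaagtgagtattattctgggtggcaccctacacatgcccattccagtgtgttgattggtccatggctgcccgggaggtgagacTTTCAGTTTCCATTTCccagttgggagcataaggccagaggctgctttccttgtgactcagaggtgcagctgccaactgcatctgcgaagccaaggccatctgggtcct

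In Apol11b the core began 50 bases before the start, in Apol10a 51 and in Apol11a 50. Apol9a, Apol9b and Apol7c each held a pair of overlapping cores, beginning 59, 37 and 55 bases before the start. In Apol10b the core spanned the start itself, beginning 4 bases before it. The hypoxia response element core, searched on both strands as ACGTG, was found in 1 window, that of Apol9b. Of all windows 19.6% held it, and 21.8% of all genes in any window. In Apol9b it did not overlap the interferon cores. A match describes the sequence and does not show that a factor binds there.

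**Figure D1:**
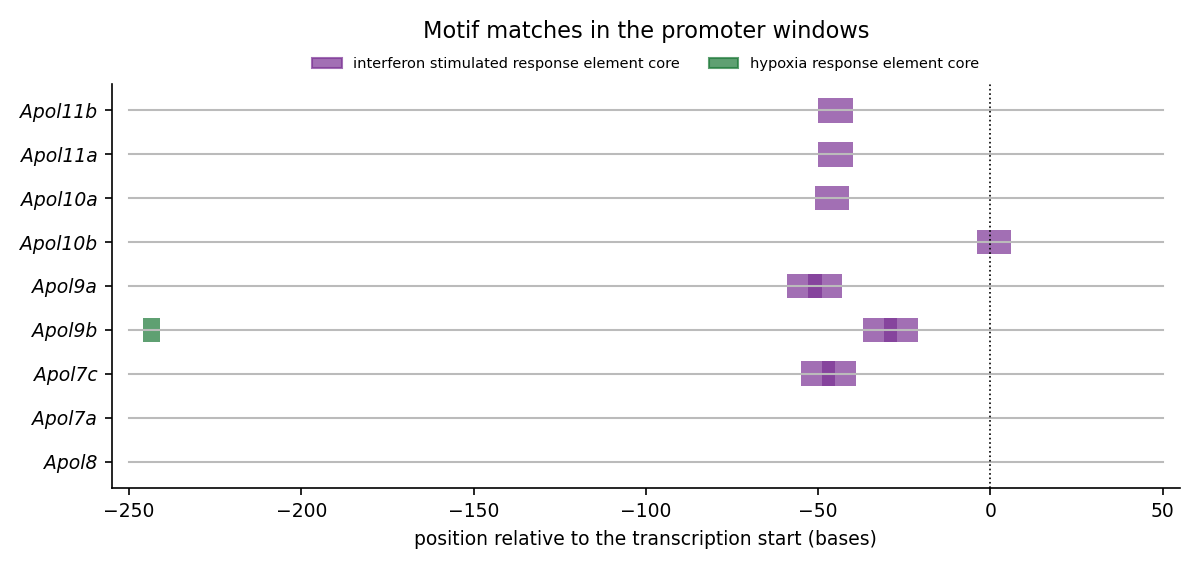
Matches to the interferon stimulated response element core and the hypoxia response element core, on either strand, in the promoter windows of 9 members. The x axis gives the position in bases relative to the transcription start (dotted line), and darker bands mark overlapping matches. In 6 of the 7 windows with the interferon core it began 37 to 59 bases before the start, and in Apol10b 4 bases before it.

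Members resembled each other in sequence. The windows of Apol11b and Apol11a were 99.3% identical and differed by 2 substitutions, G251A and T252C (Apol11b base first, counted from 1 at the 5′ end of the window). Those of Apol10a and Apol11b were 89.0% identical and those of Apol9a and Apol9b 86.3%, with the gaps from their shifted starts counted as differences. This matters for the counts as well, since the reads were 75 bases long. Of the distinct stretches of 75 bases in the Apol9b transcripts, 43.3% also occur in Apol9a, and 13.8% of those of Apol9a occur in Apol9b. The share found in any other gene was 7.79% for Apol11b, 6.65% for Apol11a, 6.56% for Apol10a, 1.51% for Apol10b and 14.2% for Apol7c. The split of reads between Apol9a and Apol9b is therefore uncertain.

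The summed reads of the family were higher in the lungs with NOS-null marrow, mostly through Apol11b. The 10 members summed to 1517, 1568, 832 and 529 scaled reads in NOS-null marrow lungs in replicate order, against 189, 231, 165 and 207 in WT marrow lungs. The groups did not overlap. Without Apol11b, the other 9 members summed to 349, 279, 171 and 142 scaled reads in NOS-null marrow lungs, against 105, 125, 102 and 137 in WT marrow lungs. These sums did not overlap either, but the lowest of the first lay just above the highest of the second. Per transcript length, in deposited FPKM, Apol11b made up 71.8 to 82.1% of the family's total with NOS-null marrow and 33.8 to 46.2% in WT marrow lungs. All 10 members were above 0 in each NOS-null marrow library, against 7 to 9 members in WT marrow lungs.

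**Figure D2:**
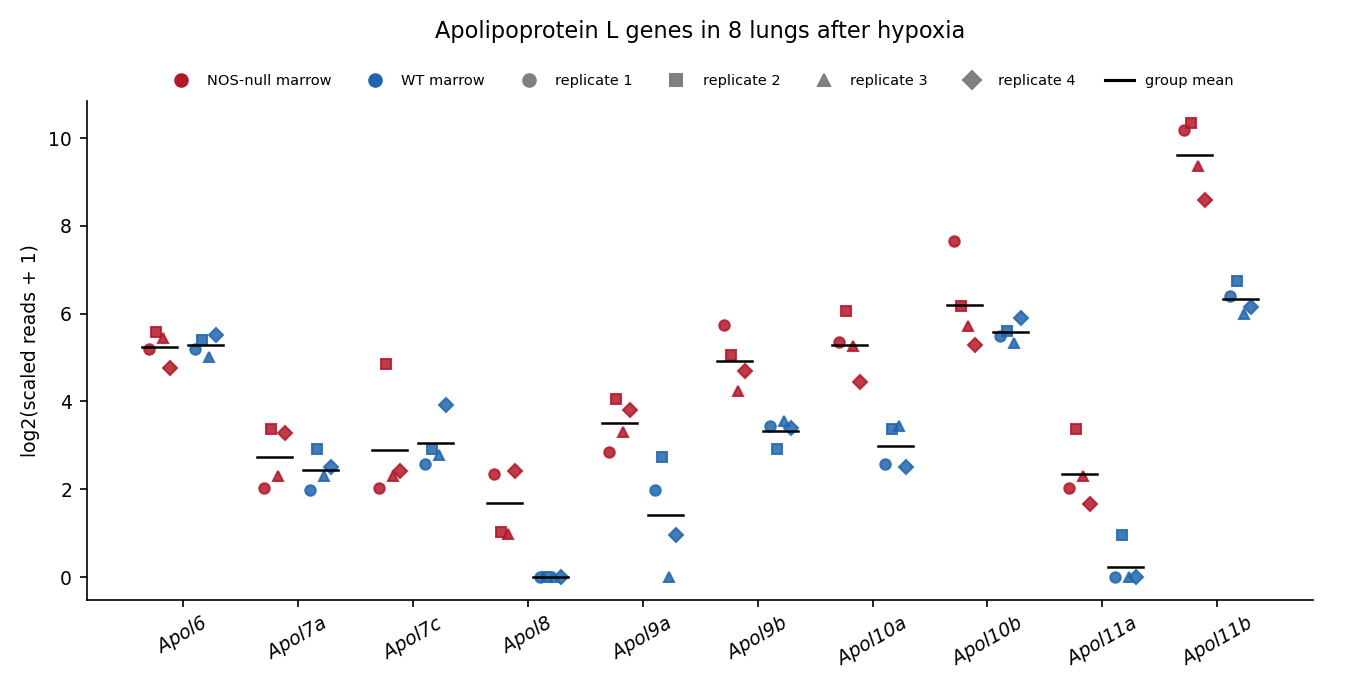
Level of each of the 10 members in each lung, as log2(scaled reads + 1), with NOS-null marrow to the left of WT marrow for each gene. Each marker is 1 library, its shape gives the replicate number and the line is the mean of 4. Apol11b stands at 386 to 1289 scaled reads in NOS-null marrow lungs, above its 63.1 to 107 in WT marrow lungs, while Apol6 overlaps between the groups.

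Apol11b was the member with the highest level in both groups. It stood at 1169, 1289, 662 and 386 scaled reads in NOS-null marrow replicates 1 to 4, against 83.5, 107, 63.1 and 70.0 in WT marrow replicates 1 to 4. The lowest NOS-null marrow library lay above the highest WT marrow library, and the NOS-null marrow libraries differed among themselves 3.34-fold. The log2 change (NOS-null minus WT marrow, after adding 1 to the scaled reads, which shrinks the changes of low genes) was 3.30 (SE 0.34, 95% interval 2.54 to 4.05). This is 9.83-fold (5.83 to 16.6), the ninth largest increase among the 14008 genes tested. In deposited FPKM, Apol11b averaged 56.5 ± 27.4 with NOS-null marrow and 5.21 ± 1.24 in WT marrow lungs (SD, n = 4 each). By mean FPKM it ranked 1705 among the table's genes with NOS-null marrow and 9291 in WT marrow lungs.

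Apol10a, whose promoter window is close to that of Apol11b, stood at 40.0, 65.6, 37.5 and 20.7 scaled reads in NOS-null marrow lungs, against 4.97, 9.37, 9.85 and 4.73 in WT marrow lungs. The groups did not overlap. Its log2 change was 2.30 (SE 0.37, 95% interval 1.48 to 3.13), or 4.93-fold. Apol9b stood at 52.3, 32.3, 17.7 and 25.0 scaled reads in NOS-null marrow lungs, against 9.94, 6.56, 10.8 and 9.45 in WT marrow lungs. These groups did not overlap either, and the log2 change was 1.60 (SE 0.33, 0.87 to 2.33), or 3.03-fold.

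Apol10b and Apol6 overlapped between the groups. Apol10b stood at 201, 70.8, 51.3 and 38.1 scaled reads in NOS-null marrow lungs, against 43.7, 47.8, 39.4 and 58.6 in WT marrow lungs. Replicates 1 and 2 lay above all WT marrow libraries, replicate 1 by far, while replicate 3 lay within their range and replicate 4 just below it. The log2 change was 0.62 (SE 0.42, 95% interval −0.31 to 1.56), 0.14 without NOS-null marrow replicate 1, and −0.08 without replicates 1 and 2. Apol6 stood at 35.9, 46.9, 42.4 and 26.1 scaled reads in NOS-null marrow lungs, against 35.8, 41.2, 31.5 and 44.4 in WT marrow lungs. Its log2 change was −0.04 (SE 0.21, 95% interval −0.51 to 0.44).

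These 5 members reached 10 scaled reads in 4 or more libraries and so were part of the limma fit over all 14008 genes. As a description of that fit, and not as a test of genes chosen on it, 3 of the 5 (Apol11b, Apol10a and Apol9b) were past a Benjamini-Hochberg adjusted p of 0.05 as higher with NOS-null marrow, where 1.87% of all tested genes were, and 0 as lower, where 2.18% were. Apol10a reached the filter through the NOS-null marrow libraries alone, and Apol9b through these and 1 WT marrow library, so the number of members that passed is no measure of the family. The count was 1 without WT marrow replicate 1, and 2 without WT marrow replicate 2, 3 or 4 or NOS-null marrow replicate 2. It was 1 when replicates 1 and 2 of NOS-null marrow were left out together.

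The other 5 members were too low for the test. Apol9a, the close copy of Apol9b, stood at 6.15, 15.6, 8.87 and 13.1 scaled reads in NOS-null marrow lungs, against 2.98, 5.62, 0 and 0.945 in WT marrow lungs. Apol11a, the close copy of Apol11b, stood at 3.08, 9.37, 3.94 and 2.18 scaled reads, against a value above 0 (0.937, about 1 read) in WT marrow replicate 2 alone. Apol8 stood at 4.10, 1.04, 0.986 and 4.35 scaled reads in NOS-null marrow lungs and was listed at 0 in all 4 WT marrow libraries. A value of 0 allows a level of up to 2.81 to 2.98 scaled reads in a WT marrow library (3 reads, counting error only). These 3 members did not overlap between the groups, but each rests on a few reads.

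Apol7a and Apol7c were as low, and their groups overlapped. Apol7a stood at 3.08 to 9.37 scaled reads (median 6.32) with NOS-null marrow and 2.98 to 6.56 (median 4.33) in WT marrow lungs. Apol7c, the dendritic cell member, stood at 3.08, 28.1, 3.94 and 4.35 scaled reads in NOS-null marrow lungs, against 4.97, 6.56, 5.91 and 14.2 in WT marrow lungs. NOS-null marrow replicate 2 was high in it and the other 3 were not. In all, 6 of the 10 members had groups that did not overlap, each higher with NOS-null marrow, where 5.38% of all genes of the table were so. None was lower without overlap (0 members, against 5.84% of all genes of the table), and 4 overlapped. Among the 5 members in the fit, 3 were higher without overlap and 0 lower, beside 7.82% and 9.29% of the 14008 genes.

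Levels were ordered per transcript length. With NOS-null marrow the order of mean FPKM was Apol11b (56.5), Apol10b (6.05), Apol9b (2.88), Apol6 (2.17), Apol10a (1.73), Apol9a (1.00), Apol7c (0.641), Apol11a (0.599), Apol7a (0.359) and Apol8 (0.192). Apol11b, with at least 24.9 FPKM, did not overlap with Apol10b, with at most 13.5, and all other neighbours in this order overlapped in range. With WT marrow the order was Apol11b (5.21), Apol10b (3.18), Apol6 (2.19), Apol9b (0.841), Apol7c (0.513), Apol10a (0.305), Apol7a (0.260), Apol9a (0.225), Apol11a (0.0302) and Apol8 (0). Here Apol11b, Apol10b and Apol6 each lay above the range of the next in order, and from Apol9b downward neighbours overlapped.

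**Figure D3:**
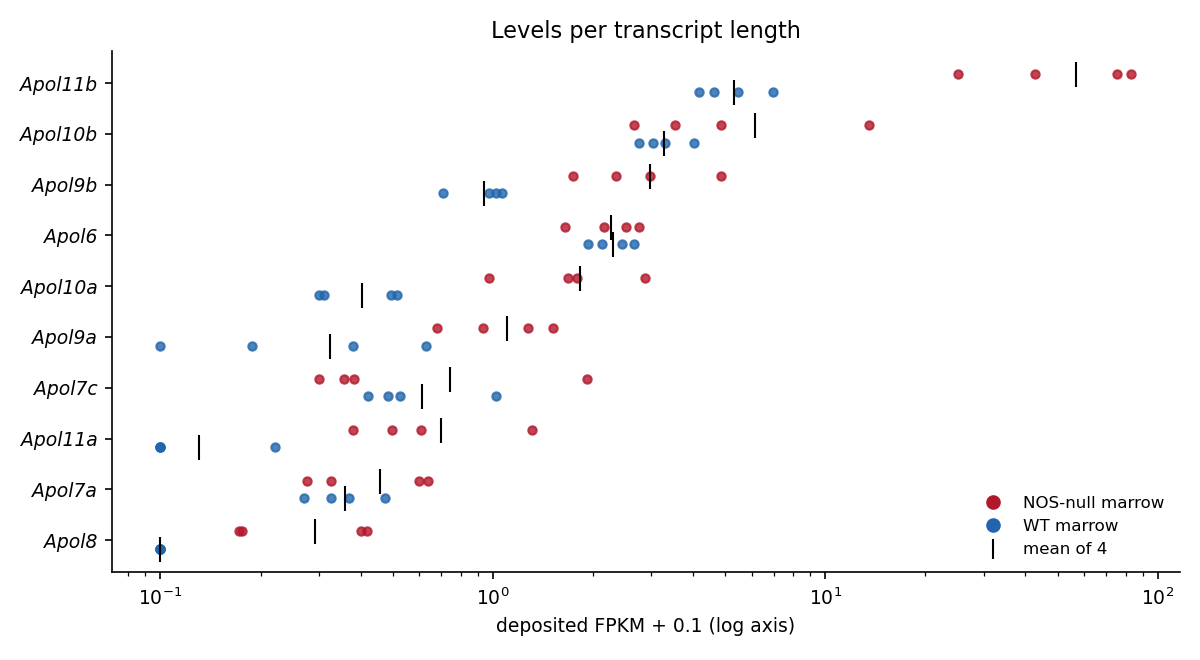
Deposited FPKM of each member plus 0.1, on a log axis, with NOS-null marrow above WT marrow for each gene. Points are libraries and black bars are means of 4, and genes run down the page in the order of their mean with NOS-null marrow. Apol11b lies at 24.9 to 83.1 FPKM with NOS-null marrow and at 4.07 to 6.88 in WT marrow lungs.

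The genes around the cluster were set beside all tested genes, of which 4.05% passed in either direction. Of 27 tested genes within 500 kb of the outermost members, 0 passed as higher, 1 passed as lower and 26 did not pass. Of all tested genes 1.87% passed as higher and 2.18% as lower. At an unadjusted limma p under 0.05, 4 neighbours were higher and 3 lower, with no share of all genes at that cut beside them. Their median log2 change was −0.00, with a range of −0.41 to 1.61. Txn2, which encodes mitochondrial thioredoxin, was the gene that fell, to 534 ± 29.7 scaled reads in NOS-null marrow lungs, against 711 ± 35.9 in WT marrow lungs (log2 change −0.41, SE 0.07, limma adjusted p = 0.0231). Leaving out any 1 WT marrow library, or the second NOS-null marrow library, ended this call. The count of neighbours that passed was 2 without NOS-null marrow replicate 1 or 3, and 0 when the second NOS-null marrow library, or a WT marrow library other than replicate 4, was left out. Rbfox2, a splicing factor gene that lies between Apol6 and the other members, had a log2 change of −0.11 (SE 0.12, adjusted p = 0.561), and Myh9, the non-muscle myosin gene next to Apol8, one of −0.04 (SE 0.08, adjusted p = 0.788, both limma).

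**Figure D4:**
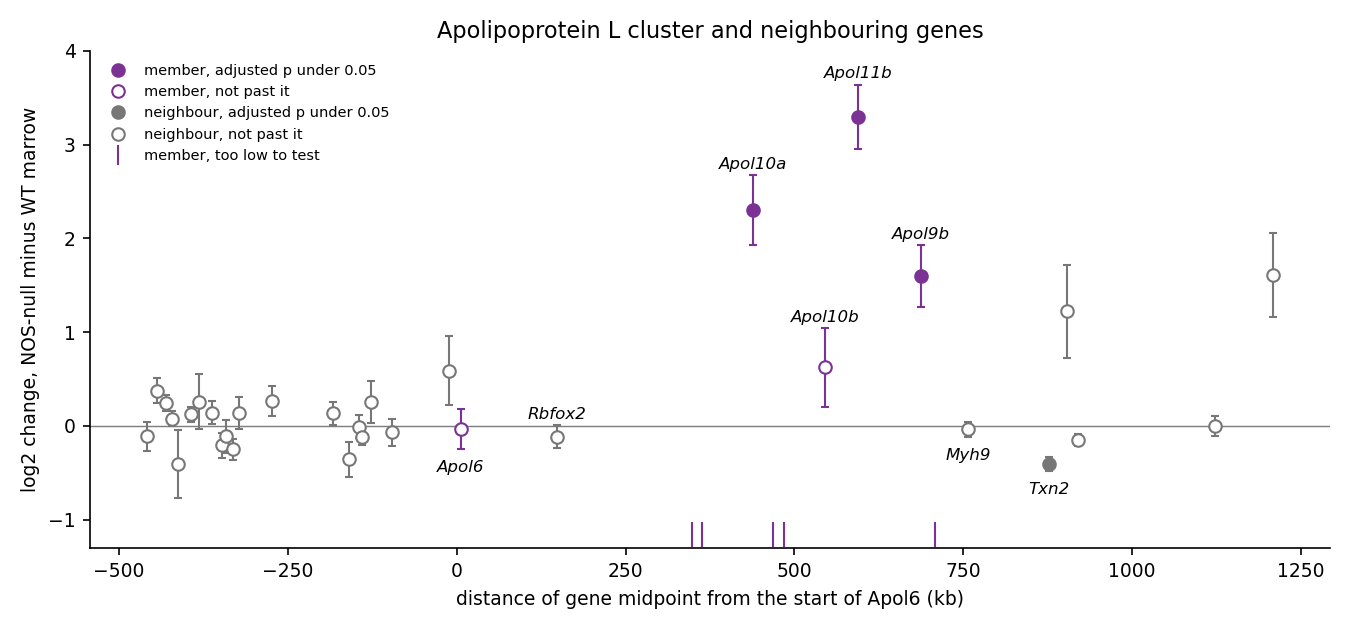
Log2 change (NOS-null minus WT marrow, with SE as bars) of each tested gene within 500 kb of the family, against the distance of its midpoint from the start of Apol6 in kb. Filled symbols passed an adjusted p of 0.05, purple marks members, and short lines at the bottom mark members too low to test. Apol11b (3.30), Apol10a (2.30) and Apol9b (1.60) stand above the flanking genes Rbfox2 (−0.11) and Myh9 (−0.04).

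The members' correlations within groups differed from pair to pair and between the groups. With each group's mean removed, over 8 libraries that share the 2 groups, the pairs of the 5 tested members had Pearson correlations of log2 values from −0.14 (Apol6 with Apol9b) to 0.75 (Apol9b with Apol10b). Apol10a and Apol11b, both highest in NOS-null marrow replicate 2, had 0.71, and 0.76 without NOS-null marrow replicate 1. Apol9b and Apol10b were both highest in NOS-null marrow replicate 1, and their 0.75 became 0.18 without it. Apol10b and Apol11b had 0.68, and 0.78 without that replicate. Apol6 and Apol10b had 0.32, and 0.93 without it, the highest of the 10 pairs in those 7 libraries.

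Within each group alone the values differed. Over the 4 NOS-null marrow libraries the highest pair was Apol6 and Apol10a with 0.93, against −0.45 over the 4 WT marrow libraries. Apol6 and Apol11b had 0.77 and 0.42. Over the NOS-null marrow libraries, Apol10a and Apol11b had 0.91, Apol9b and Apol10b 0.88, and Apol10b and Apol11b 0.75. Over the WT marrow libraries these were 0.14, −0.31 and 0.12. Apol9b and Apol11b had 0.63 over the NOS-null marrow libraries and −0.90 over the WT marrow libraries. Apol6 and Apol10b were the reverse case, with 0.25 and 0.95. A correlation over 4 libraries is a loose description. In WT marrow lungs Apol9b stood at 6.56 to 10.8 scaled reads and Apol10a at 4.73 to 9.85. Apol6 (31.5 to 44.4) and Apol10b (39.4 to 58.6) had narrow ranges there. Such differences between WT marrow libraries were not separated from counting error, and nothing is drawn from their correlations.

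The genes most like each member, by the same measure, differed from one member to the next. For Apol10b they were Tap1, a subunit of the peptide transporter of class I presentation, with 0.99, and the interferon-induced GTPase genes Irgm2 with 0.99 and Igtp with 0.98. Without NOS-null marrow replicate 1, which was highest in all 4 genes, these values were 0.97, 0.92 and 0.93 over 7 libraries. For Apol9b they were Cyyr1 (0.99), Alas2, the first enzyme of haem synthesis in red cell precursors (0.99), and Bcl2l11, which encodes the pro-apoptotic protein Bim (0.98). For Apol11b they were Osgin1, an oxidative stress response gene (0.99), F2r, the thrombin receptor gene (0.98), and H2-DMb1 of class II peptide loading (0.98). For Apol10a they were Insig2, Ikbkg and Rc3h2 (0.98, 0.96 and 0.96), and for Apol6 Rhebl1, 2700046G09Rik and Zfp169 (0.96, 0.96 and 0.95). From 0.0928 to 1.55% of tested genes exceeded 0.9 with a given member.

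Of these likest genes, Alas2 rose with NOS-null marrow, to 5650 ± 979 scaled reads, against 2101 ± 183 in WT marrow lungs (log2 change 1.41, SE 0.12, limma adjusted p = 0.000975). The other 14 did not pass. Tap1 stood at 1378 ± 806 scaled reads in NOS-null marrow lungs and 617 ± 67.3 in WT marrow lungs (adjusted p = 0.0689), and Osgin1 at 188 ± 38.6 and 128 ± 10.1 (adjusted p = 0.0685, both limma).

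The type I interferon response is the antiviral programme known to induce Apol9a and Apol9b. Of its genes 8 of 30 tested rose with NOS-null marrow, 0 fell and 22 did not pass, beside 1.87% and 2.18% over all genes. The median log2 change was 0.55 (all tested genes 0.00), and 29 of the 30 were positive. At an unadjusted limma p under 0.05, 22 were higher and 0 lower, with no share of all genes at that cut beside them. Rsad2, which encodes the antiviral protein viperin, averaged 1748 ± 312 scaled reads in NOS-null marrow lungs, against 548 ± 102 in WT marrow lungs. Its log2 change was 1.67 (SE 0.16, limma adjusted p = 0.00199). Ifi44 stood at 155 ± 18.5 and 57.6 ± 14.7 (1.45, SE 0.20, adjusted p = 0.00781). The number that rose was 2 without NOS-null marrow replicate 2 and 4, 3, 3 and 4 without WT marrow replicates 1 to 4.

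Interferon gamma response and class I presentation genes had a median log2 change of 0.96 over 30 tested, all 30 positive. Of these 1 rose, 0 fell and 29 did not pass, beside 1.87% and 2.18% over all genes. At an unadjusted limma p under 0.05, 23 were higher and 0 lower. The share of all tested genes at that looser cut is not given here. The riser was Tap2, the other subunit of the peptide transporter, which averaged 861 ± 151 scaled reads in NOS-null marrow lungs, against 549 ± 86.3 in WT marrow lungs. Its log2 change was 0.65 (SE 0.14, limma adjusted p = 0.0332). The number that rose was 8 without NOS-null marrow replicate 1, 3 without replicate 3 and 9 without replicate 4, and it was 0 when the second NOS-null marrow library, or a WT marrow library other than replicate 4, was left out. Of 15 tested interferon ligand, receptor and signalling genes 0 passed with limma, and 4 were higher and 0 lower at an unadjusted p under 0.05. Ifngr1, a receptor chain for interferon gamma, stood at 3480 ± 894 scaled reads in NOS-null marrow lungs and 3408 ± 451 in WT marrow lungs, and the kinase gene Jak1 at 2259 ± 315 and 2346 ± 124. Without NOS-null marrow replicates 1 and 3, 2 and 1 of these signalling genes passed in turn. The interferon genes Ifnb1, Ifna2 and Ifne were listed at 0 in all 8 libraries, while Ifng, Ifna4 and Ifnk were not at 0 in all of them.

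The interferon lists and the members were set side by side in each library. The mean deviation of the interferon gamma list from the mean of the 8 libraries (log2) in the NOS-null marrow libraries (replicate order) was 1.32, 0.54, −0.02 and −0.10, against −0.49 to −0.40 in WT marrow lungs. That of the type I list was 0.53, 0.31, 0.07 and 0.35, against −0.63 to −0.13. With group means removed, Apol10b had a correlation of 0.97 with the interferon gamma list and 0.29 with the type I list, and of 0.83 and −0.46 without NOS-null marrow replicate 1. Apol11b had 0.73 and 0.29, and 0.86 and 0.09 without that replicate. Apol9b had 0.85 and 0.56, and 0.55 and 0.31. Apol10a had 0.34 and 0.16, and 0.65 and 0.15. Apol6, which overlapped between the groups, had 0.23 and −0.48, and 0.66 and −0.52. These describe 8 or 7 libraries that share their depth and cell make-up, and the part of interferon in the members' levels was not tested.

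**Figure D5:**
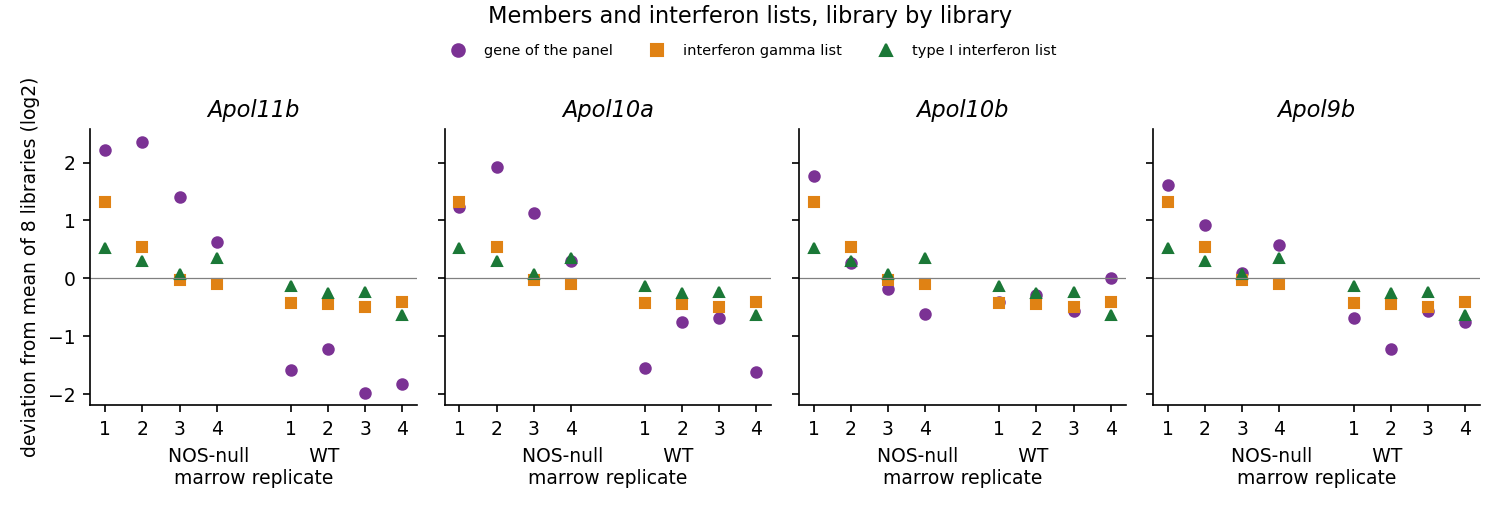
Deviation from the mean of the 8 libraries (log2) of Apol11b, Apol10a, Apol10b and Apol9b, 1 panel each, beside the mean deviations of the interferon gamma and type I interferon lists. The x axis gives NOS-null marrow replicates 1 to 4, then WT marrow replicates 1 to 4. Apol10b and the interferon gamma list (1.32 in NOS-null marrow replicate 1) are both highest in that library.

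Marker levels of immune cells are given for the same lungs. Counts at an unadjusted limma p under 0.05 are given without the share of all genes at that cut. Of 8 tested natural killer (NK) cell markers 3 fell, 0 rose and 5 did not pass with limma, beside 2.18% lower and 1.87% higher over all genes. The 3 were Gzma, Klra8 and Klrb1c, named after their values were seen, and Klra8 is uncertain because it has close copies. At an unadjusted p under 0.05, 6 were lower, while 2 of the 8 had a positive change. The NK list summed to 178 to 394 scaled reads in NOS-null marrow lungs, against 377 to 579 in WT marrow lungs, so the sums overlapped. Its calls numbered 1 when any 1 WT marrow library, or the second NOS-null marrow library, was left out. Of 12 neutrophil markers 11 were in the table and summed to 103448 scaled reads in NOS-null marrow replicate 1 and to 15862, 8442 and 10313 in the other 3, against 3977 to 7811 in WT marrow lungs. All 10 tested had a positive change, 0 passed with limma, and 8 had an unadjusted p under 0.05. The 8 B cell markers summed to 78.9 to 985 scaled reads in NOS-null marrow lungs, against 1353 to 2782 in WT marrow lungs, and of 7 tested 0 passed and 7 were lower at an unadjusted p under 0.05. Neutrophil markers had a within-group correlation of 0.91 with Apol9b, 0.83 with Apol10b, 0.51 with Apol11b and 0.22 with Apol10a, and of 0.81, −0.01, 0.30 and 0.42 without NOS-null marrow replicate 1. T cell markers summed to 502 to 1669 scaled reads in NOS-null marrow lungs, against 333 to 548 in WT marrow lungs, with 0 of 10 past the threshold and 6 higher at an unadjusted p under 0.05. Monocyte and interstitial macrophage markers summed to 5818 to 9790 and 3934 to 6186, with 0 of 12 past it and 5 higher unadjusted. Of 10 tested alveolar macrophage markers 1 rose and 1 fell. Their list summed to 3194 to 4035 scaled reads in NOS-null marrow lungs, against 2884 to 3121 in WT marrow lungs. Of 5 tested plasma cell markers 1 rose and 1 fell. Of 7 tested markers of other dendritic cells (cDC2 and plasmacytoid) 0 rose and 1 fell.

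Apol11b and Apol10a followed other lists more closely than neutrophil markers. Apol11b had a within-group correlation of 0.82 with NK markers, 0.73 with T cell markers, 0.72 with monocyte markers and 0.67 with genes of cross-presenting dendritic cells. Without NOS-null marrow replicate 1 these were 0.77, 0.87, 0.66 and 0.89. Apol10a had 0.49, 0.76, 0.69 and 0.73 with the same lists. B cell markers had −0.92 with Apol9b, −0.93 with Apol10b and −0.64 with Apol11b. No marker of the NK, neutrophil, B cell, T cell or monocyte lists was at 0 in all libraries. The part of these cells in the members' levels was not tested.

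Dendritic cell genes were set beside Apol7c. Of 11 tested genes of cross-presenting dendritic cells 0 passed with limma, with 3 higher and 4 lower at an unadjusted p under 0.05, and of 13 of mature dendritic cells 0 passed, with 1 higher and 3 lower. Cd24a stood at 5062 ± 981 scaled reads in NOS-null marrow lungs and 3694 ± 693 in WT marrow lungs (adjusted p = 0.112), Cadm1 at 2614 ± 144 and 3032 ± 110 (0.0906), Socs2 at 1845 ± 137 and 1756 ± 188 (0.627) and Cd40 at 194 ± 27.5 and 236 ± 16.1 (0.156). These genes were named as the highest means of their lists. Whole lung RNA does not show which cells their reads came from, so their values are no measure of dendritic cells. The mature list deviated by 0.47 in NOS-null marrow replicate 2, where Apol7c was highest. It deviated by −0.53 to −0.08 in the other 3, against −0.07 to 0.23 in WT marrow lungs. T cell markers also stood highest in that library (1669 scaled reads, against 502 to 695 in the other 3). The part of these cells in the Apol7c value was not tested. Cross-presentation genes had 1 call without NOS-null marrow replicate 4, and the mature list 1 without NOS-null marrow replicate 2 or 3.

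Among 12 tested genes of other apolipoproteins and their partners, 1 rose, 1 fell and 10 missed the threshold, beside 1.87% and 2.18% over all genes. Their median log2 change was 0.10. Apold1, a gene of endothelial cells that encodes a protein with an apolipoprotein L domain and lies on another chromosome, fell. It stood at 77.2 to 90.6 scaled reads in NOS-null marrow lungs (median 80.5), against 148 to 219 in WT marrow lungs (median 177) (log2 change −1.11, SE 0.13, limma adjusted p = 0.00439). The groups did not overlap, and the call was kept whichever of the 8 libraries was left out. Abca1, which exports cholesterol to apolipoprotein A-I, rose to 1183 ± 305 scaled reads in NOS-null marrow lungs, against 642 ± 55.3 in WT marrow lungs (log2 change 0.85, SE 0.15, adjusted p = 0.0219). Leaving out any 1 WT marrow replicate ended the call of Abca1, so that Apold1 was then the 1 gene called.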

How the data were processed

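Total RNA of whole lung, with an RNA integrity check by the submitters, was selected for mRNA and read as 75 base single reads, per the labels' protocols. Base calls came from CASAVA 1.8.2, and TopHat2 2.0.13, Bowtie2 2.2.3, SAMtools 0.1.19 and Cufflinks 2.2.1 were used with mm10, per the submitters' processing notes. Annotation, strand of counting and filters were not stated there. The gene table the authors deposited holds signal values, namely read counts divided by a size factor per library. In each library 90.4 to 98.8% of values above 0 lay within 0.05 of a whole number of reads, once divided by the value of 1 read. No count model was used. The FPKM table deposited by the authors served for levels between genes and as an alternative. Titles of the samples gave the groups, since the design text describes both groups as receiving NOS-null marrow.

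Scaled reads plus 1 were log2-transformed, and the 14008 genes that reached 10 in 4 or more libraries entered limma 3.58.1 (R 4.3.3, trend on, not robust, no other terms), with Benjamini-Hochberg adjustment over all of them at 0.05. At the depth given, a value of 0 allows up to 3 reads. Counts at an unadjusted limma p under 0.05 have no share of all tested genes beside them and are description only. The members and lists were chosen with earlier results of these data known. Named genes are the members, for each list the 2 called genes of largest change each way or else the 2 of highest mean, the 3 genes likest each tested member, called neighbours, and Rbfox2 and Myh9 for their position. A further promoter motif is not reported here. Likeness is the Pearson correlation after removal of group means. Alternatives were a pseudocount of 5, no filter, FPKM, upper quartile and quantile scaling, robust limma, a replicate block and libraries left out.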

Additional observations from a re-analysis of the deposited data

Results flagged for a closer look

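Of the members and the other named genes, 8 had 1 library far from the other 3 of its group, by Dixon's test at the 95% level, out of 78 groups of 4 examined. Chance gives about 1 in 20 groups of 4. Among the members, Apol7c stood at 28.1 scaled reads in NOS-null marrow replicate 2, against 3.08 to 4.35 in the other 3, and Apol11a at 0.937 in WT marrow replicate 2, against 0 in the other 3. This value is a single read, and any value above 0 would stand apart from 3 zeros. Among the other named genes, NOS-null marrow replicate 1 was high in Tap2 (1086 scaled reads, against 762 to 801 in the other 3), Jak1 (2727 against 2046 to 2132), Cadm1 (2827 against 2510 to 2562) and Igtp (3448 against 715 to 1021). WT marrow replicate 4 was high in Irgm2 (827 against 617 to 645), and WT marrow replicate 2 was low in Cyyr1 (207 against 252 to 261).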

How the results depend on the processing

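With libraries left out 1 at a time, from 44 to 411 genes passed as higher with NOS-null marrow (262 with all 8) and from 27 to 389 as lower (305). In the same fits 1 to 3 members passed as higher (3 with all 8) and 0 as lower. The type I interferon list had 2 to 10 calls, the interferon gamma list 0 to 9, the signalling list 0 to 2, other apolipoproteins 1 to 2, both dendritic cell lists 0 to 1, NK markers 1 to 3 (3 with all 8, counted after the data were seen) and cluster neighbours 0 to 2. Without NOS-null marrow replicates 1 and 2 together, 97 genes passed as higher, 84 as lower, 1 member as higher, and 2, 4 and 2 genes of the type I, interferon gamma and mature dendritic cell lists, with 0 neighbours, and the log2 change of Apol11b was 2.66. Upper quartile scaling gave 2 interferon gamma and 2 cross-presentation calls, quantile normalization 4 and 1, and robust limma 1 cross-presentation call. Without a filter 4 members passed, Apol11a added. The cause of these moves was not tested, beyond the fewer samples in some. Directions of Apol11b, Apol10a and Apol9b were positive under all alternatives run. Depth limits the 5 untested members.

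Samples with the same replicate number correlated at −0.00 to 0.17 in their deviations from the group means, against −0.18 to 0.11 for other pairs, and 2 of 4 NOS-null marrow libraries were nearest to their own number, so the numbers were not taken as pairs. With a replicate block, 81 genes passed as higher and 54 as lower, 2 members (Apol10a and Apol11b), 3 type I genes, 0 interferon gamma genes, 1 NK marker and 0 neighbours.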

Other observations

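The table holds 3 further apolipoprotein L symbols that were outside the list, chosen for mention after their values were seen. Apol7e stood at 6.15, 27.1, 5.92 and 4.35 scaled reads with NOS-null marrow, against 9.94, 9.37, 6.90 and 1.89 with WT marrow, so that its highest library was NOS-null marrow replicate 2, as for Apol7c. Apol7b stood at 0 to 3.12 scaled reads with NOS-null marrow and 0 to 0.994 with WT marrow. Apol7d, annotated as an antisense RNA on another chromosome, stood at 0 to 1.09 and 0 to 0.937. Of the distinct stretches of 75 bases in Apol7b and Apol7e transcripts, 61.3 and 61.6% also occur in other genes, so reads of these genes can be assigned to the wrong copy.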
